A study of Homo sapiens with 12 samples.

Results

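The 34 genes described here encode enzymes and regulators that make purine and pyrimidine nucleotides, supply them with folate one-carbon units, and make or control polyamines. They were listed by gene symbol, with no measured value in the rule, although earlier results of these data were known when they were chosen. Each symbol matched 1 of the 57820 gene rows of the count table. By role they comprise 2 genes that make phosphoribosyl pyrophosphate (PRPP), 6 of the route to inosine monophosphate (IMP), 4 of its branches to AMP and GMP, and 5 of pyrimidine synthesis. A further 5 supply thymidylate or guard the deoxynucleotide pool, 3 belong to folate metabolism, 6 to methionine and polyamine synthesis, and 3 control or break down polyamines. All 34 passed the filter on low counts that left 17096 genes for testing, MTAP through its counts in SKOV3 only.

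Messenger RNA was sequenced from 12 cultures of 3 human cancer cell lines, A549 from lung, SKOV3 from ovary and MDA-MB-231 from breast, which the series describes as free of MYC amplification. Each line carried either lentiviral pCDH-puro-cMyc, which expresses full-length human c-Myc, or the pCDH-CMV control vector, and the MYC cells were stable populations selected in puromycin. The cells received DMSO, the solvent control, or tipifarnib, an inhibitor of protein farnesyltransferase, for 48 h, at 10 µM in A549 and at 20 µM in SKOV3 and MDA-MB-231. Vector and treatment together give 4 groups, each with 1 library per line and so 3 libraries. Within a group each line was sampled in 1 culture, as far as the labels tell, and whether the stable populations are clones is not stated. The replicates are therefore different lines, and a p-value reflects nothing beyond the spread among these libraries, which may in part be technical. A test over both vectors or both treatments takes the 2 pairs of a line as independent, which can make its p-value and standard error too small. Because A549 had another dose, line and dose cannot be told apart where A549 is set against the other lines.

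Cells build IMP on a PRPP scaffold with nitrogen from glutamine, glycine and aspartate and with formyl groups carried by folate, and then turn it into AMP or GMP. Pyrimidines start from carbamoyl phosphate, pass through UMP, and lead to CTP and, by methylation of dUMP, to thymidylate. Polyamines arise when ornithine is decarboxylated to putrescine, which is extended to spermidine and spermine with aminopropyl groups from decarboxylated S-adenosylmethionine. Many of these genes are textbook targets of MYC, a transcription factor that binds DNA with its partner MAX at the E-box, and several dNTP genes are transcribed mainly as cells enter S phase.

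Libraries held 20481363 to 26962994 counts assigned to genes. Levels below are CPM, read counts per 1000000 of a library size scaled by the TMM method, and values in sets of 3 follow the order A549, SKOV3, MDA-MB-231. MYC itself, a check of the labels, stood at 105, 48.4 and 148 CPM in control cells in DMSO and at 912, 494 and 709 CPM in MYC cells in DMSO. In tipifarnib it stood at 143.5, 99.7 and 349 CPM in control cells and at 506, 610.1 and 1593 CPM in MYC cells. MYC cells thus exceeded control cells in 6 of 6 pairs, and reads from the vector and from the cells' own gene were not separated. Markers of the lines matched the labels in part. Of the 5 A549 markers ALDH1A1, AKR1B10, ALDH3A1 and NQO1 were highest in A549 in each group, whereas AKR1C1 was higher in SKOV3 (259 to 562 CPM) than in A549 (171 to 330 CPM). Of the 4 SKOV3 markers ERBB2 and PAX8 were highest in SKOV3, and MUC16 and WT1 were at no more than 1.76 CPM there. Of the 5 MDA-MB-231 markers ZEB1 was highest in that line in each group and VIM in 3 of 4 groups, but TGFBI (11.8 to 55.8 CPM) and SPARC (no more than 0.768 CPM) were lowest there, and CAV1 was highest in SKOV3 in 3 of 4 groups. The summed blood and endothelial markers came to 0 to 2.61 CPM.

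The first comparison asked which of the genes differed in MYC cells over both treatments. By role, 5 of 6 genes of IMP synthesis rose, beside 2 of 6 genes of methionine and polyamine synthesis, 1 of 2 of PRPP supply, 1 of 4 of the AMP and GMP branches, 1 of 5 of pyrimidine synthesis, 1 of 5 of thymidylate and dNTP supply, 1 of 3 of folate and 0 of 3 of polyamine control. In edgeR's quasi-likelihood test with line as a block, 12 of 34 genes rose in MYC cells and 0 fell, at a Benjamini-Hochberg adjusted p under 0.05 over all genes tested. Of all genes 4.5% were called higher and 2.84% lower. The median log2 difference of the 34 genes was 0.29, against -0.0003 over all genes tested, and 29 of the 34 were above 0. Levels were higher in MYC cells in all 6 pairs for 17 of 34 genes (50%), against 12.2% of all genes. The calls needed all 3 lines. With A549, SKOV3 or MDA-MB-231 left out, 0 members were called, beside 10, 14 and 148 genes in all, while 15, 18 and 17 members had an unadjusted p under 0.05 and all 12 kept their sign.

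Of the 6 genes of IMP synthesis 5 rose in MYC cells, with a median of 0.52 on the log2 scale. PPAT, which starts the route by moving an amide from glutamine to PRPP, stood at 48.9, 36.9 and 78.1 CPM in control cells in DMSO and at 78.3, 65.5 and 119 CPM in MYC cells in DMSO. In tipifarnib it stood at 34.9, 35.3 and 63.0 CPM in control cells and at 53.6, 52.9 and 96.5 CPM in MYC cells. MYC cells were above control cells of the same line in every pair, although the ranges over lines overlapped. The difference was 0.65 ± 0.08 (log2, SE; adjusted p = 0.00826). GART, a trifunctional enzyme of 3 steps that uses formyl folate, rose by 0.69 ± 0.11 (adjusted p = 0.0108), from 152, 91.2 and 218 CPM to 277, 176 and 279 CPM in DMSO and from 149, 102 and 187 CPM to 207, 186 and 284 CPM in tipifarnib. PAICS, a bifunctional enzyme of the middle of the route, rose by 0.53 ± 0.09 (adjusted p = 0.0141). Its levels in DMSO were 339.8, 333 and 631 CPM in control cells and 481, 477 and 812 CPM in MYC cells. PFAS, a glutamine-using synthase, differed by 0.50 ± 0.11 (adjusted p = 0.029), and ADSL, a lyase that serves both IMP and AMP synthesis, by 0.41 ± 0.10 (adjusted p = 0.0436). ATIC, which completes IMP, was at 0.29 ± 0.11 with an adjusted p of 0.146 and was higher in 5 of 6 pairs, the exception being A549 in DMSO at 186 CPM in control and 174.5 CPM in MYC cells.

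PPAT and PAICS stand head to head on chromosome 4 and are read from opposite strands. Their promoter windows are shown, with those of ODC1 and DHODH, for the E-box CACGTG that MYC and MAX are known to bind. These were the 4 genes with the smallest p among members that rose in MYC cells and held the motif. The presence of the motif in the windows shown was thus fixed by the choice. The windows come from RefSeq on GRCh38.p14, run from 250 bases before to 50 after an annotated start, 5′ to 3′ on the gene's own strand, and have the motif in capitals. The counts were made on hg19, and the coordinates belong to GRCh38 only. The first is PPAT at chr4:56435566-56435865 on the minus strand, and the others are PAICS at chr4:56435502-56435801 on the plus strand, ODC1 at chr2:10447963-10448262 on the minus strand and DHODH at chr16:72008494-72008793 on the plus strand.
PPAT: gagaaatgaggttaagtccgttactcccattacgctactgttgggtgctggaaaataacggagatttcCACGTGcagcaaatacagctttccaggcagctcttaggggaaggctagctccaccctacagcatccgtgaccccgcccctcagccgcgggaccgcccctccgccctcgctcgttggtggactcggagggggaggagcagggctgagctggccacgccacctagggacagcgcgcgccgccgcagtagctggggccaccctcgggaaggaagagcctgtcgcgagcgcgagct
PAICS: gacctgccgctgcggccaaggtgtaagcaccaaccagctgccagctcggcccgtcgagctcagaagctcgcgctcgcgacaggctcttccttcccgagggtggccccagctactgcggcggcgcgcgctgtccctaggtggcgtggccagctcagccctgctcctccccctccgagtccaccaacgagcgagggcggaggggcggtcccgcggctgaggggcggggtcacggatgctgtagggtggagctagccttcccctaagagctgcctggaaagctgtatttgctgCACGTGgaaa
ODC1: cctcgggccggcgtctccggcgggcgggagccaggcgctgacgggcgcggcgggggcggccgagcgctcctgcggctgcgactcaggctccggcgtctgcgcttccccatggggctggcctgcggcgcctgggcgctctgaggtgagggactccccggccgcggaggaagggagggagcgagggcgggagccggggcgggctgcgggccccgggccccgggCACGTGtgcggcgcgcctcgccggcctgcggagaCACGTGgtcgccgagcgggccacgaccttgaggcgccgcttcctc
DHODH: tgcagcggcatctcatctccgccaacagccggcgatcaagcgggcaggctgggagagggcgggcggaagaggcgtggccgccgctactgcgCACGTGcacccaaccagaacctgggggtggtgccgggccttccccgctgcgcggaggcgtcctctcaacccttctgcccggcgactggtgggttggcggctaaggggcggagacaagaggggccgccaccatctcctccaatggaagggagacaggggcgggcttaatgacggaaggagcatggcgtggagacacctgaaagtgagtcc
The PPAT and PAICS windows share 236 bases, and the same CACGTG lies in both, its first base at position -182 from the PPAT start and at position 41 from the PAICS start. ODC1 has 2 copies, at -29 and 6, and DHODH has 1 at -159. The motif is its own reverse complement, so a search of the given strand covers both. Some genes have several windows, and a gene was counted if any of them held the motif. ODC1, PAICS and MTHFD1L also have windows without it. Among members with a RefSeq window, 9 of 31 (29.03%) held it, against 12.02% of the genes tested that had a window. The share of all 35116 windows, counted singly and not by gene, was 7.26%. The motif was present for 7 of the 10 members with a window that rose in MYC cells (70.0%). These were SRM, ODC1, PPAT, PAICS, MTHFD1L, DCTPP1 and DHODH, where PPAT and PAICS count separately although they share the same copy. GART, PFAS and PRPS1 rose and had no copy in any window. Of the 21 other members 2 held it (9.52%), ATIC and MTHFD1. Of all genes higher in MYC cells 17.8% held it. IMPDH2, ADSL and AZIN1 had no window. These are matches of letters, counted with the calls known, and no binding was measured.

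**Figure D1:**
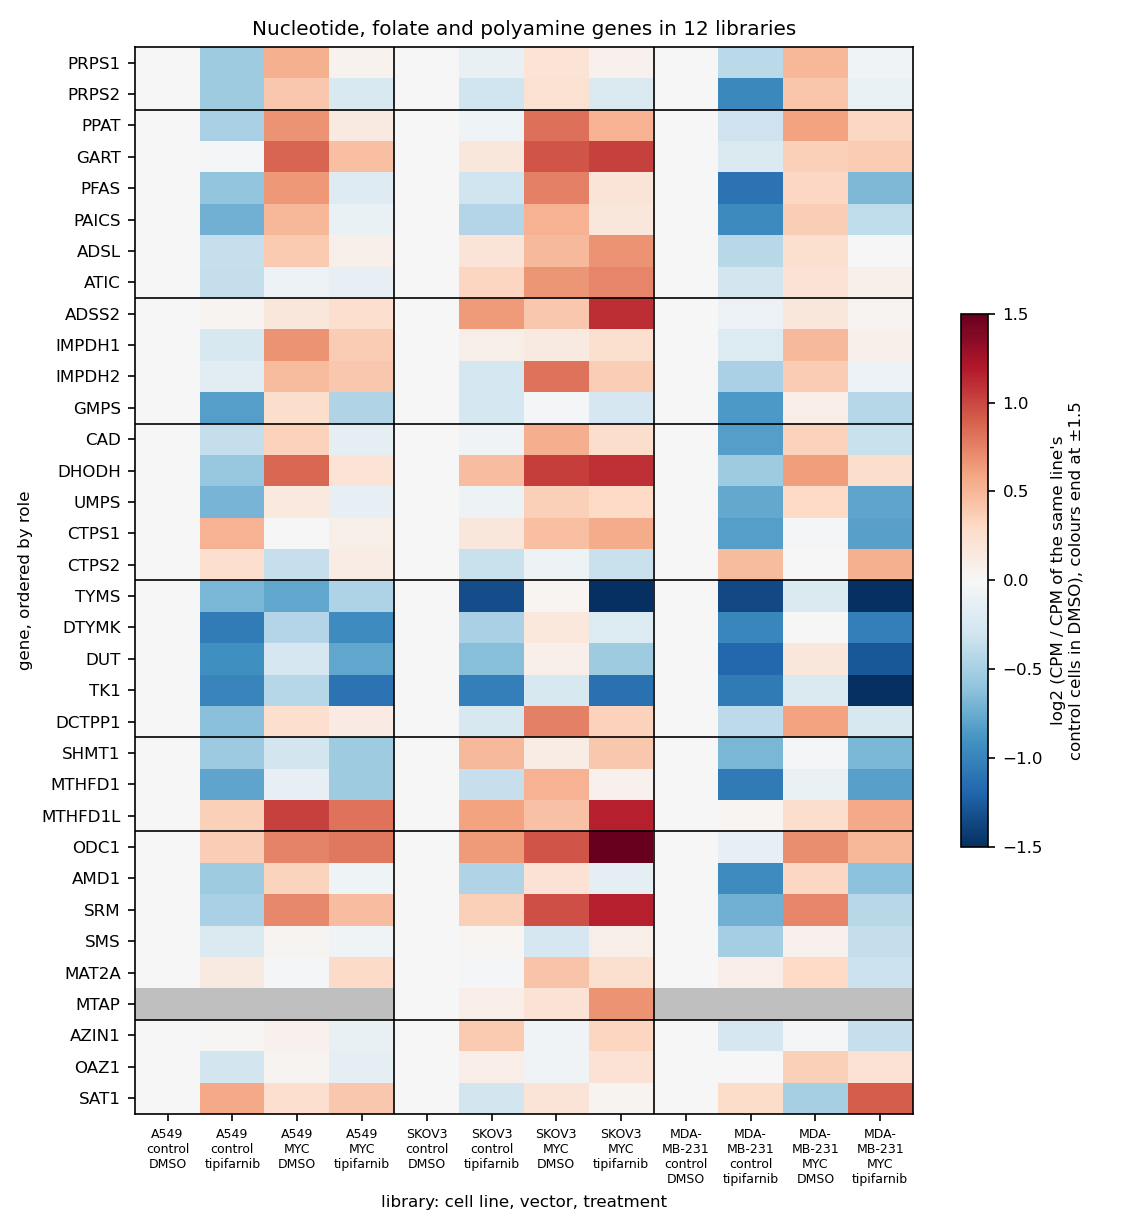
Heat map of the 34 genes (rows, ordered by role, with lines between roles) in the 12 libraries (columns); colour is the log2 ratio of CPM to control cells of the same line in DMSO, and colours end at ±1.5. MTAP is grey in A549 and MDA-MB-231, where it had 0 to 7 counts, and DTYMK, DUT and TK1 are blue in the tipifarnib columns of each line.

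In the branches from IMP, IMPDH2, which commits IMP to GMP, rose in MYC cells by 0.54 ± 0.09 (adjusted p = 0.0144). It stood in DMSO at 167, 57.9 and 333 CPM in control cells and at 233, 102 and 432 CPM in MYC cells. Its isozyme IMPDH1 was higher in 6 of 6 pairs at 0.39 ± 0.11, with an adjusted p of 0.0552. ADSS2 of the AMP branch and GMPS, which aminates XMP, did not pass the test at 0.26 ± 0.13 and 0.19 ± 0.11. Of the PRPP synthetases PRPS1 rose by 0.39 ± 0.10 (adjusted p = 0.043), and PRPS2 was at 0.38 ± 0.11 with an adjusted p of 0.0658. The calls for PRPS1 and ADSL were lost with the size factors of DESeq2 in place of TMM.

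Among pyrimidine genes, DHODH, the mitochondrial dihydroorotate dehydrogenase, rose by 0.77 ± 0.15 (adjusted p = 0.0214). It was a low gene at 22.6, 7.38 and 22.3 CPM in control and 41.0, 15.1 and 34.3 CPM in MYC cells in DMSO, and at 15.2, 10.2 and 15.4 CPM against 26.1, 15.7 and 26.8 CPM in tipifarnib. MYC cells were above control cells in each of these pairs. CAD, which catalyses the opening steps of the pathway, was higher in 6 of 6 pairs at 0.37 ± 0.10 with an adjusted p of 0.0592. UMPS, CTPS1 and CTPS2 did not pass, at 0.30, 0.05 and -0.09. Of the thymidylate and dNTP genes DCTPP1 alone was called, a pyrophosphatase that clears dCTP and its modified forms, at 0.52 ± 0.11 (adjusted p = 0.0241). TK1, the salvage kinase for thymidine, was lower in MYC cells in 6 of 6 pairs at -0.27 ± 0.10, with an adjusted p of 0.116.

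ODC1, the rate-limiting decarboxylase of polyamine synthesis, stood at 243, 87.9 and 243 CPM in control cells in DMSO and at 407, 169 and 395 CPM in MYC cells in DMSO. In tipifarnib it stood at 313, 136 and 223 CPM in control and 419.6, 273.5 and 344 CPM in MYC cells. The rise was 0.74 ± 0.14 (adjusted p = 0.0185), and SKOV3 had the lowest level in each group. SRM, which makes spermidine, rose by 0.75 ± 0.18 (adjusted p = 0.0343), from 86.8, 37.5 and 106 CPM to 142.5, 73.2 and 176 CPM in DMSO. AMD1, which provides the aminopropyl donor, was higher in 6 of 6 pairs at 0.33 ± 0.10 with an adjusted p of 0.0751. SMS, which makes spermine, and MAT2A, which makes S-adenosylmethionine, did not pass at 0.04 ± 0.11 and 0.13 ± 0.12, nor did AZIN1, OAZ1 and SAT1, which lay between -0.05 and 0.15. In folate metabolism MTHFD1L, which releases formate in mitochondria, rose by 0.56 ± 0.13 (adjusted p = 0.0317). MTHFD1 and SHMT1, which encode cytosolic enzymes, were at 0.20 ± 0.11 and -0.06 ± 0.16.

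**Figure D2:**
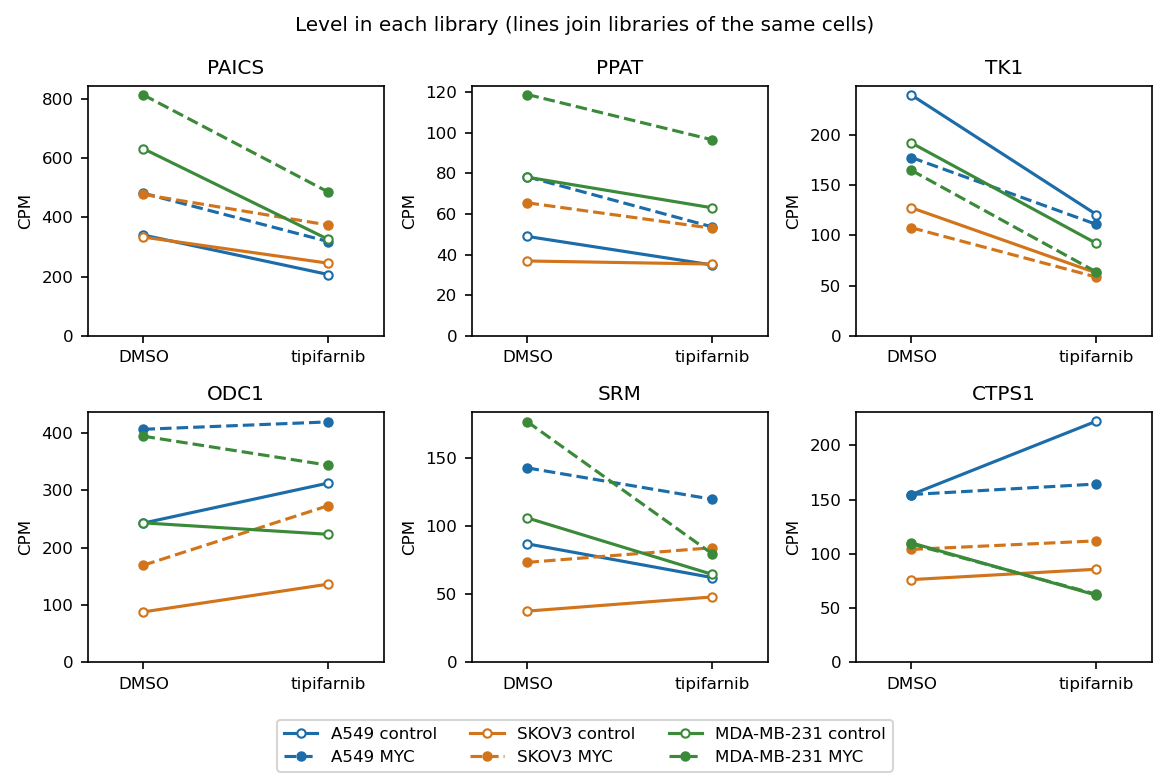
CPM of 6 genes in each library, in DMSO and in tipifarnib (linear axes from 0); lines join libraries of the same cells, open points and solid lines are control cells, filled points and dashed lines MYC cells. PPAT, ODC1 and SRM lie higher in MYC than in control cells of each line, TK1 and PAICS fall in all 6 pairs, and CTPS1 falls in MDA-MB-231 alone of the 3 lines; its control and MYC points there nearly coincide.

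Tipifarnib over both vectors was associated with lower RNA of thymidylate genes and of parts of the purine route. Of the 34 genes 14 fell and 0 rose, where 4.66% of all genes were called higher and 6.62% lower. The median log2 difference, tipifarnib minus DMSO, was -0.30 for the 34 genes and 0.0006 over all genes tested, and 27 of the 34 were below 0. Levels were lower in all 6 pairs for 15 of 34 genes (44.1%), against 11.2% of all genes. Without A549 6 of the 14 calls stayed (PFAS, TYMS, DTYMK, DUT, TK1 and AMD1). Without SKOV3 14 members were again called, with DHODH, UMPS and SHMT1 in place of PPAT, TYMS and DCTPP1, and without MDA-MB-231 TK1 alone was called. All 14 kept their sign in each case. Of all genes 977, 1172 and 87 were called without A549, SKOV3 and MDA-MB-231, against 1927 with every line.

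All 5 genes of thymidylate and dNTP supply fell, with a median of -0.89. TK1 stood in DMSO at 239.9, 128 and 192 CPM in control cells and 178, 108 and 165 CPM in MYC cells, and in tipifarnib at 121, 62.7 and 92.0 CPM in control cells and 111, 58.5 and 63.5 CPM in MYC cells. Every tipifarnib library was below its DMSO partner, with some overlap between lines, and the difference was -0.999 ± 0.096 (log2, SE; adjusted p = 0.000559). DUT, which destroys dUTP and yields the dUMP that is methylated to thymidylate, fell by 0.89 ± 0.12 (adjusted p = 0.00292), from 96.2, 79.2 and 202 CPM to 51.0, 51.1 and 89.0 CPM in control cells. MYC cells went from 80.6, 83.8 and 227 CPM to 55.8, 54.5 and 83.5 CPM. DTYMK, the next kinase on the way to dTTP, fell by 0.74 ± 0.12 (adjusted p = 0.00481) and DCTPP1 by 0.44 ± 0.11 (adjusted p = 0.0304). TYMS, thymidylate synthase, fell by 1.03 ± 0.23 (adjusted p = 0.0199) and was lower in 5 of 6 pairs. Its levels went from 32.7, 31.1 and 51.8 CPM to 20.3, 12.4 and 20.2 CPM in control cells, and from 19.1, 31.6 and 44.5 CPM to 23.7, 11.0 and 15.0 CPM in MYC cells. The exception was the A549 pair of MYC cells, whose DMSO level was the lowest of the 6 DMSO libraries. TYMS overlaps ENOSF1 and TYMSOS on the opposite strand, and the strand setting of the counting is not given in the sources used here. Whether reads in the overlap were counted or left out as ambiguous is therefore not known. GART, PFAS, MAT2A, SHMT1, MTHFD1, DCTPP1, OAZ1 and CTPS2 likewise overlap SON, CTC1, GGCX, SMCR8, ZBTB25, ZNF771, JSRP1 and S100G on the opposite strand. ADSL overlaps SGSM3 on the same strand. Members with processed pseudogenes that could take or lend reads include DUT, PAICS, AMD1, PPAT, PRPS1, SRM, GMPS, TYMS, MTHFD1 and SHMT1.

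Markers of proliferating cells moved in the same direction. All 12 of them (MKI67, TOP2A, PLK1, CDK1, CCNA2, CCNB1, AURKB, BUB1, PCNA, MCM2, MCM3 and MCM5) fell in tipifarnib, with a median of -0.90, and their summed level was 2430 to 3774 CPM in the DMSO libraries and 1200 to 1818 CPM in the tipifarnib libraries. The lowest level of any of them in any library was 17.97 CPM. In bulk RNA fewer cells in S phase and less of a transcript per cell cannot be told apart. The markers' part in the fall of the 34 genes was not tested. Between MYC and control cells 0 of the 12 markers were called, with a median of 0.14.

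Of the purine genes PFAS, PAICS and PPAT fell in tipifarnib. PFAS stood in control cells at 191, 51.1 and 159.5 CPM in DMSO and 127, 41.5 and 74.1 CPM in tipifarnib, and in MYC cells at 299, 86.6 and 199 CPM and 167.5, 58.4 and 99.8 CPM. Its difference was -0.74 ± 0.11 (adjusted p = 0.00413). PAICS went to 207, 245 and 325 CPM in control cells and 318, 373.5 and 485 CPM in MYC cells, a difference of -0.64 ± 0.09 (adjusted p = 0.0033). With tipifarnib, MYC cells held less PAICS than control cells in DMSO in A549 and MDA-MB-231, and more in SKOV3. PPAT fell less, by 0.34 ± 0.08 (adjusted p = 0.0276). GART, ADSL and ATIC, which act in the same route, did not pass at -0.07 ± 0.11, -0.16 ± 0.10 and -0.08 ± 0.11. GMPS fell by 0.57 ± 0.11 (adjusted p = 0.0122), and IMPDH2 was lower in 6 of 6 pairs at -0.32 ± 0.09 with an adjusted p of 0.0539. Both PRPP synthetases fell, PRPS2 by 0.55 ± 0.11 (adjusted p = 0.0128) and PRPS1 by 0.37 ± 0.10 (adjusted p = 0.0406). With no filter on low counts PRPS1 and PPAT were no longer called.

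CAD fell by 0.44 ± 0.10 (adjusted p = 0.0257), and UMPS, which makes UMP from orotate, was lower in 6 of 6 pairs at -0.49 ± 0.14 with an adjusted p of 0.0511. DHODH, CTPS1 and CTPS2 did not pass at -0.27 ± 0.15, -0.11 ± 0.19 and 0.18 ± 0.14. MTHFD1, the trifunctional cytosolic enzyme that interconverts folate one-carbon units, fell by 0.64 ± 0.11 (adjusted p = 0.00773), from 212, 91.5 and 272 CPM to 122, 71.8 and 130.5 CPM in control cells. MTHFD1L was at 0.29 ± 0.13 with an adjusted p of 0.17 and was higher in 5 of 6 pairs. AMD1 fell by 0.60 ± 0.10 (adjusted p = 0.00647), from 164, 126 and 163 CPM to 113, 92.3 and 84.6 CPM in control cells and from 206.5, 146 and 202 CPM to 157, 115 and 106.5 CPM in MYC cells. It was the sole gene of polyamine synthesis or control to be called, and ODC1 and SAT1, which acetylates polyamines for export or breakdown, were at 0.24 ± 0.14 and 0.33 ± 0.18. OAZ1, the antizyme that sends ODC1 protein to the proteasome, and AZIN1, which binds antizyme, were at -0.04 ± 0.09 and 0.00 ± 0.11. These proteins are largely controlled at translation and by turnover, which RNA counts do not measure.

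**Figure D3:**
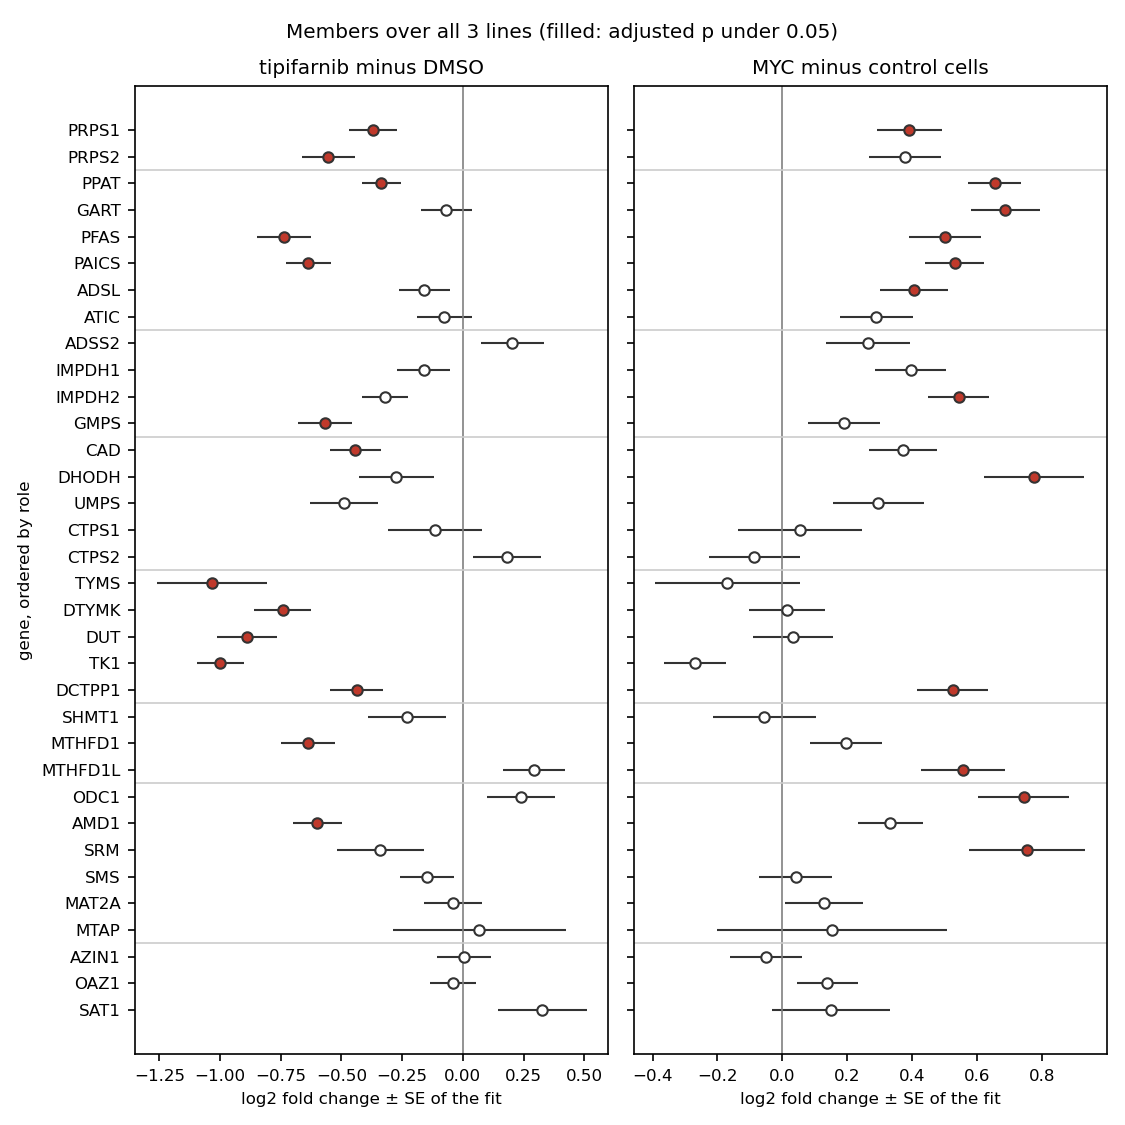
Log2 fold change of each of the 34 genes (rows, ordered by role) over all 3 lines, tipifarnib minus DMSO on the left and MYC minus control cells on the right; bars are the SE of the fit and filled points have an adjusted p under 0.05. On the left 14 points are filled, all below 0, and on the right 12, all above 0.

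The MYC and tipifarnib comparisons use the same 12 libraries, so their calls are set side by side without a test of their overlap. DCTPP1, PAICS, PFAS, PPAT and PRPS1 were called in both, higher in MYC cells and lower in tipifarnib. A further 9 were called for tipifarnib alone (AMD1, CAD, DTYMK, DUT, GMPS, MTHFD1, PRPS2, TK1 and TYMS), 7 for MYC alone (ADSL, DHODH, GART, IMPDH2, MTHFD1L, ODC1 and SRM), and 13 for neither. Singly, 6.62% of all genes were called lower in tipifarnib and 4.5% higher in MYC cells. The share of all genes called in both, or in a single comparison, was not computed, so these counts are a listing only. A gene called in a single comparison can lie just above the threshold in the other, as IMPDH2 did for tipifarnib and CAD for MYC. A difference between the effects was not tested by these counts.

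Whether the response to tipifarnib depended on MYC, the question the series names, was tested by the interaction. No gene of the 17096 was called (0.0%), and none by DESeq2 or limma-voom. At an unadjusted p under 0.05 there were 125 genes and 0 of the 34. The interaction of the 33 genes other than MTAP lay between -0.24 for MAT2A and 0.25 for SAT1 on the log2 scale, and the standard errors of all 34 were 0.16 to 0.70. Differences of that size between the responses of MYC and control cells were not detectable with 3 libraries a group.

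MYC cells in tipifarnib were also compared with control cells in DMSO. Of all genes 1.99% were higher and 2.98% lower, and of the 34 genes 3 rose and 3 fell. ODC1 (0.98 ± 0.20, adjusted p = 0.0279), MTHFD1L (0.85 ± 0.18, adjusted p = 0.0319) and GART (0.62 ± 0.15, adjusted p = 0.0456) were higher. TK1 (-1.27 ± 0.14, adjusted p = 0.00536), DUT (-0.86 ± 0.18, adjusted p = 0.0288) and DTYMK (-0.73 ± 0.17, adjusted p = 0.0375) were lower. TYMS was at -1.20 ± 0.32 with an adjusted p of 0.0608, and it was called by DESeq2, limma-voom, without the filter and without A549. PAICS, PFAS and PRPS1, called in both single comparisons, were at -0.11 ± 0.13, -0.24 ± 0.16 and 0.02 ± 0.14 here. Without A549 TK1 and TYMS were called, and without SKOV3 or without MDA-MB-231 no member was. Of all genes 251, 1 and 11 were called without A549, SKOV3 and MDA-MB-231, against 851 with every line.

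Effects of tipifarnib within each line came from a model that gives every line separate terms for MYC and for tipifarnib, in which the 2 pairs of a line are the replicates. In A549 12 of the 34 genes fell and 0 rose, beside 4.47% and 3.56% of all genes. In SKOV3 6 fell and 4 rose, beside 7.46% and 6.57%. In MDA-MB-231 19 fell and 2 rose, beside 12.1% and 10.6%. AMD1, DUT, PAICS, PFAS and TK1 fell in each of the 3 lines. The SKOV3 call was lost for PAICS with the size factors of DESeq2 and for AMD1 without the low count filter. The share of all genes called lower in each line was not computed. The proliferation markers fell in all of them, with 11, 12 and 12 of 12 called.

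The genes that rose in SKOV3 were ADSS2 (0.67 ± 0.11, adjusted p = 0.00342), MTHFD1L (0.67 ± 0.15, adjusted p = 0.0153), ODC1 (0.66 ± 0.12, adjusted p = 0.00607) and AZIN1 (0.38 ± 0.11, adjusted p = 0.0463). ADSS2 went from 39.5 to 61.4 CPM in control and from 52.4 to 84.9 CPM in MYC cells, and ODC1 from 87.9 to 136 CPM and from 169 to 273.5 CPM. In MDA-MB-231 SAT1 (0.84 ± 0.23, adjusted p = 0.0257) and CTPS2 (0.51 ± 0.14, adjusted p = 0.0303) rose. SAT1 there went from 37.4 to 45.3 CPM in control and from 26.5 to 70.3 CPM in MYC cells, so most of the estimate came from the MYC pair. In the same line SRM fell by 0.94 ± 0.13 (adjusted p = 0.0016), from 106 to 64.4 CPM in control and from 176 to 79.4 CPM in MYC cells.

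The difference of the tipifarnib effect between lines was called for 6 of 34 genes, against 7.69% of all genes. They were CTPS1 (adjusted p = 0.0142), SRM (0.0167), SHMT1 (0.0173), ADSS2 (0.0283), ODC1 (0.0385) and TYMS (0.0434). Between SKOV3 and MDA-MB-231, which had the same dose, the effect was higher in SKOV3 for 8 members and lower for 1, beside 3.49% and 3.85% of all genes. The median of that difference was 0.49 for the 34 genes and -0.02 over all genes tested. SRM differed by 1.21 ± 0.19 (adjusted p = 0.0109), SHMT1 by 1.05 ± 0.17 (adjusted p = 0.0122) and CTPS1, which makes CTP from UTP, by 0.95 ± 0.18 (adjusted p = 0.0174). UMPS (0.86), ODC1 (0.82), ADSS2 (0.78), AZIN1 (0.67) and SMS (0.65) followed, and CTPS2 was the gene lower in SKOV3, at -0.80 ± 0.19 (adjusted p = 0.0385). CTPS1 in MDA-MB-231 went from 110.0 to 61.8 CPM in control and from 109 to 62.6 CPM in MYC cells, whereas its isozyme CTPS2 went from 8.31 to 11.6 CPM and from 8.27 to 11.99 CPM. In SKOV3 CTPS1 went from 76.2 to 85.7 and from 104 to 112 CPM, and CTPS2 from 40.4 to 32.0 and from 38.2 to 32.1 CPM. SHMT1, the cytosolic serine hydroxymethyltransferase, went from 39.4 to 55.1 and from 42.7 to 52.1 CPM in SKOV3 and from 45.4 to 28.3 and from 44.4 to 28.3 CPM in MDA-MB-231. Of the proliferation markers 2 of 12 were called in this difference, both higher in SKOV3, and their median was 0.04.

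**Figure D4:**
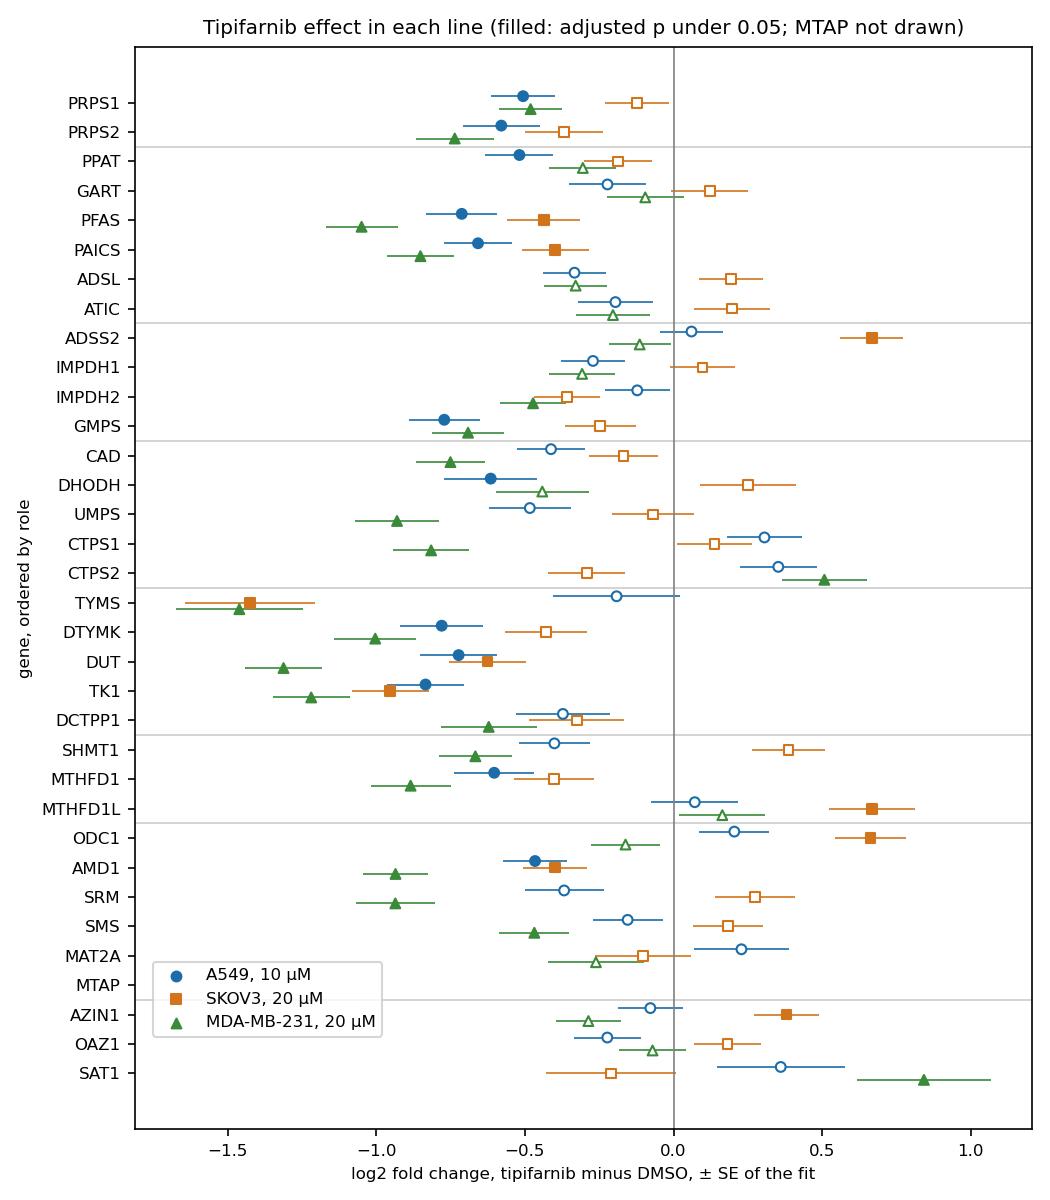
Log2 fold change, tipifarnib minus DMSO, of 33 genes (rows, ordered by role) in A549 (circles, 10 µM), SKOV3 (squares, 20 µM) and MDA-MB-231 (triangles, 20 µM), with the SE of the fit; filled points have an adjusted p under 0.05. TK1 and DUT are filled and below 0 in each line, and SRM, SHMT1 and CTPS1 stand on opposite sides of 0 in SKOV3 and MDA-MB-231; MTAP is not drawn.

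By line, 13 of the 34 genes rose with MYC in A549 and likewise 13 in SKOV3, whereas MDA-MB-231 had 3, and 0 fell in any line. Of all genes 9.94% were higher and 7.8% lower in A549. The shares for SKOV3 were 4.58% and 4.5%, and those for MDA-MB-231 were 0.813% and 0.831%. The 2 pairs of a line here are the same 2 populations in DMSO and in tipifarnib. The SE and p-values within a line thus do not measure variation between transduced populations. ODC1 and PPAT rose in each line, and the share of all genes called higher in each was not computed. ODC1 was at 0.58 ± 0.12, 0.98 ± 0.12 and 0.66 ± 0.12 (adjusted p = 0.00903, 0.00259 and 0.0321), and PPAT at 0.65 ± 0.11, 0.71 ± 0.11 and 0.61 ± 0.11 (adjusted p = 0.00484, 0.00711 and 0.0338). The third called in MDA-MB-231 was PRPS2 at 0.64 ± 0.13 (adjusted p = 0.0487), which the size factors of DESeq2 lost. DESeq2 called 10 members there, limma-voom 5, and the test without a filter 7. Of all genes they called 873, 368 and 1309 there, where the test used above called 281. The medians of the 34 genes were 0.30, 0.38 and 0.28, and a difference of the MYC effect between lines was called for 0 members, against 3.07% of all genes, with 2 members at an unadjusted p under 0.05 and 0 called by DESeq2 or limma-voom.

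Mean levels differed between the lines for 27 of the 33 genes other than MTAP, where 79.7% of all genes did, and the 6 others were GMPS, MTHFD1L, SMS, CAD, UMPS and TYMS. MTAP, which recycles the methylthioadenosine left over from polyamine synthesis, lies on chromosome 9. It had 514, 612, 695 and 796 counts in SKOV3, in the order control cells in DMSO and tipifarnib and MYC cells in DMSO and tipifarnib. It had 7, 2, 2 and 5 counts in A549 and 2, 0, 0 and 1 in MDA-MB-231. Since it passed the filter through SKOV3 alone, its line difference is a description with no test. In CPM it was at 22.3 to 35.6 in SKOV3 and at no more than 0.308 elsewhere. Of other genes of the same arm, CDKN2A had 1 to 8 counts and CDKN2B 0 to 2 in all libraries, SKOV3 included. KLHL9 had 957 to 1568 counts in the libraries of A549 and SKOV3 and 0 to 3 in those of MDA-MB-231, and DMRTA1 had 43 to 65 in A549 and 0 to 7 elsewhere. DNA copy number was not measured.

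**Figure D5:**
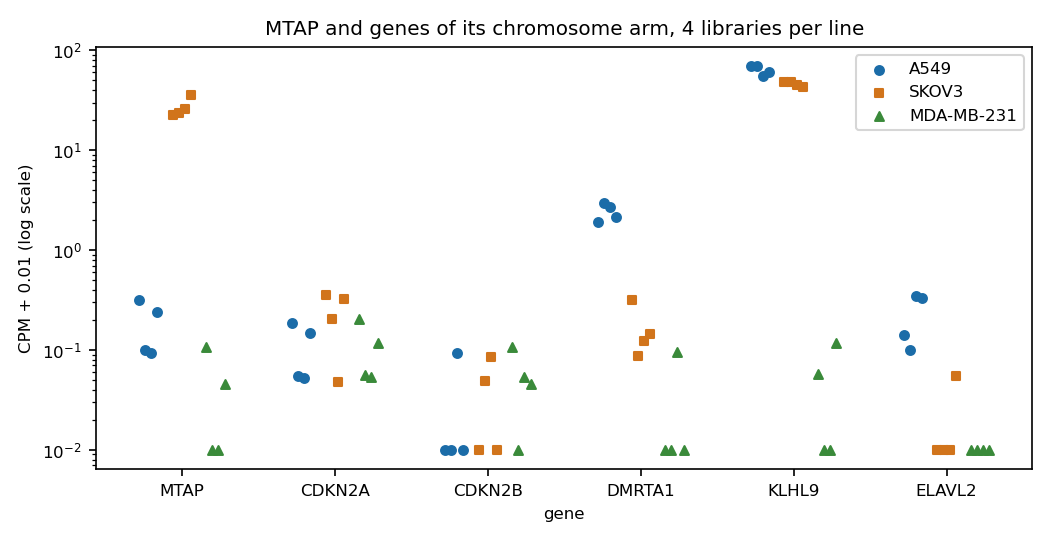
CPM + 0.01 on a log scale of MTAP and 5 other genes of chromosome 9 (horizontal axis) in the 4 libraries of each line; points at 0.01 are libraries with a count of 0. MTAP is at 22.3 to 35.6 CPM in SKOV3 and at no more than 0.308 CPM in A549 and MDA-MB-231, and KLHL9 is near 0 in MDA-MB-231 alone.

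Pairs of isozymes were compared per length, as mean CPM per kilobase of exon over the 4 libraries of a line. IMPDH2 stood at 69.3 ± 14.7, 25.5 ± 8.50 and 119 ± 28.7 (SD, n = 4), and IMPDH1 at 33.1 ± 9.38, 21.7 ± 1.51 and 18.02 ± 3.77. The IMPDH2 level was thus above that of IMPDH1 beyond the spread in A549 and MDA-MB-231, but not in SKOV3. PRPS1 stood at 67.9 ± 20.3, 33.7 ± 3.02 and 94.2 ± 25.1 and PRPS2 at 31.0 ± 8.57, 22.1 ± 3.66 and 26.7 ± 9.52 CPM per kilobase. CTPS1 stood at 15.1 ± 2.83, 8.201 ± 1.42 and 7.45 ± 2.37 and CTPS2 at 6.81 ± 1.14, 6.47 ± 0.773 and 1.82 ± 0.367. CTPS2 was therefore lowest in MDA-MB-231. The 4 libraries of a line are 2 populations in 2 treatments, so these spreads include both effects. IMPDH1 has several processed pseudogenes that could take part of its reads. Of all 34 genes the highest per kilobase were ODC1 in A549 (116 ± 28.1), SMS in SKOV3 (124.5 ± 12.3) and IMPDH2 in MDA-MB-231, and SMS was among the 3 highest in each line. The lengths are unions of all annotated exons, so comparisons between genes depend on the annotation. By mean CPM, without length, MAT2A was highest in A549 (394) and PAICS in SKOV3 (357) and MDA-MB-231 (563). Polyamine regulators differed by line, with SAT1 at 87.0 ± 14.3, 30.3 ± 3.92 and 17.97 ± 7.45 and AZIN1 at 30.6 ± 1.52, 30.6 ± 4.71 and 72.8 ± 8.47 CPM per kilobase.

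Of 59 other genes of these pathways, 6 rose and 9 fell in tipifarnib, and 6 rose and 1 fell in MYC cells. Beside these stand 4.66% higher and 6.62% lower of all genes for tipifarnib, and 4.5% higher and 2.84% lower for MYC, so the 1 fall in MYC cells is no more than the background share. Among 16 genes of pyrimidine salvage and dNTP supply, RRM1 and RRM2, the subunits of ribonucleotide reductase, fell in tipifarnib, at -0.93 ± 0.08 (adjusted p = 0.0005) and -1.74 ± 0.24 (adjusted p = 0.00259). SAMHD1, which degrades dNTPs, fell by 0.75 ± 0.12 (adjusted p = 0.00516), and 3 genes of that list rose. Of 14 further folate genes 1 rose and 2 fell in tipifarnib, and GGH, which trims the glutamate tail of folates, was among the falls at -0.47 ± 0.11 (adjusted p = 0.0235). Of 13 genes of purine salvage and exchange APRT, which salvages adenine, was the 1 called in tipifarnib, at -0.36 ± 0.08 (adjusted p = 0.0237), and it rose in MYC cells by 0.57 ± 0.08 (adjusted p = 0.0106) as did AMPD2 by 0.42 ± 0.08 (adjusted p = 0.0193). Of 16 further polyamine and methionine genes 2 rose and 3 fell in tipifarnib, SAT2 by 0.64 ± 0.12 upward (adjusted p = 0.011), OAZ2 at -0.44 ± 0.09 (adjusted p = 0.0121) and AHCY at -0.38 ± 0.07 (adjusted p = 0.0125). In MYC cells AHCY, which clears S-adenosylhomocysteine, rose by 0.56 ± 0.07 (adjusted p = 0.0088), UCK2, a uridine and cytidine kinase, by 0.60 ± 0.10 (adjusted p = 0.0119) and the folate carrier SLC19A1 by 0.52 ± 0.13 (adjusted p = 0.0447). TK2, the mitochondrial thymidine kinase, fell in MYC cells by 0.50 ± 0.11 (adjusted p = 0.029).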

How the data were processed

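The members, the gene lists and the tests were chosen with earlier results of these data known. The deposited table holds whole-number read counts per Ensembl gene in 12 columns, made by the authors with TopHat2 and HTSeq on hg19, per the submitters' processing notes, which also name DESeq2. Versions, annotation and the strand setting are not given in the sources used here. The 5 HTSeq summary rows, 17.5% to 19.9% of counts (ambiguous reads 9.22% to 10.6%), were left out. Symbols were matched for 51996 of 57820 genes; PECAM1 was unmatched.

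Low-count genes were removed with filterByExpr (4 groups as design), and the rest were TMM-scaled and tested with the quasi-likelihood test of edgeR 4.0.16 in R 4.3.3. Libraries of the same cell line form the pairs, so line was the block (6 residual degrees of freedom, common biological coefficient of variation 0.245). Within-line effects and their differences came from line with its own MYC and tipifarnib effects (3 residual degrees of freedom, 0.135), where the interaction is the error term. Standard errors are the absolute fold change divided by the root of the F statistic. Calls are adjusted p under 0.05 over all genes within each of 14 comparisons. All 34 members were named, with at most the 3 smallest p of each other list per comparison. Some genes of those other lists are counted but not reported here by name. Exon lengths are unions of GENCODE exons, and promoter windows are from RefSeq. Alternatives used DESeq2 1.42.0 and limma 3.58.1. Tables were made in Python 3.11.15 with pandas 2.3.3, and figures with matplotlib 3.10.9. The fits were also run on simulated counts in which libraries were drawn independently, so the dependence between the pairs of a line was not checked. The comparison of SKOV3 with MDA-MB-231 at the same dose was added after seeing the data. CPM carries counting error, which is small at these depths except for MTAP and its neighbours.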

Additional observations from a re-analysis of the deposited data

Results flagged for a closer look

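For 6 of the 34 genes the effect of tipifarnib differed between the 3 lines in the joint test (edgeR, adjusted over all genes). CTPS1 (adjusted p = 0.0142) was at 0.31 ± 0.13, 0.14 ± 0.13 and -0.82 ± 0.13 in A549, SKOV3 and MDA-MB-231 (log2, SE). SRM (adjusted p = 0.0167) was at -0.37 ± 0.13, 0.27 ± 0.13 and -0.94 ± 0.13. SHMT1 (adjusted p = 0.0173) was at -0.40 ± 0.12, 0.39 ± 0.12 and -0.67 ± 0.12. ADSS2 (adjusted p = 0.0283) was at 0.06 ± 0.11, 0.67 ± 0.11 and -0.11 ± 0.10. ODC1 (adjusted p = 0.0385) was at 0.20 ± 0.12, 0.66 ± 0.12 and -0.16 ± 0.12. TYMS (adjusted p = 0.0434) was at -0.19 ± 0.21, -1.43 ± 0.22 and -1.46 ± 0.21. In A549 TYMS fell from 32.7 to 20.3 CPM in control cells and rose from 19.1 to 23.7 CPM in MYC cells. A549 had 10 µM, so line and dose cannot be told apart there. At the same dose of 20 µM, SKOV3 and MDA-MB-231 differed for CTPS1, SRM, SHMT1, ADSS2 and ODC1, and TYMS was not among the 9 members called.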

How the results depend on the processing

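No called member changed direction under the alternatives run, and over single members and settings 1772 calls kept their side of the threshold, 44 were gained and 118 were lost. The 14 falls in tipifarnib became 0 without the replicate block (line) and 1 to 14 with a line left out. The 12 rises in MYC cells became 0 without the replicate block and 0 with any line left out. For MYC cells in tipifarnib against control cells in DMSO, the 3 rises became 0 without the replicate block and 0 with a line left out, and the 3 falls became 0 without the block and 0 to 2 with a line left out. In all these settings the effects kept their sign for the members called, and fewer libraries or a larger residual spread were tested. Over all 17096 genes 0 were called in these comparisons without the block, and fewer were called with any line left out. In MDA-MB-231, limma-voom called 1 member higher in tipifarnib in place of 2, and the 3 rises in MYC cells were 7 without the low count filter, 5 with limma-voom and 10 with DESeq2. All genes called for MYC in that line, in either direction, were 281 by the test used above and 1309, 368 and 873 in these settings. The 6 members whose tipifarnib effect differed between lines were 14 without the filter and 16 with DESeq2. All genes called for that difference went from 1314 to 3197 and 2217. For the changes of filter and tool the cause was not tested. Between SKOV3 and MDA-MB-231 9 members were called, 14 without the filter and 16 with DESeq2, beside 1255, 2353 and 1814 of all genes. Precision is limited by 3 lines per group with 1 library each, not by depth, except for MTAP in A549 and MDA-MB-231.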
